A study of Rattus norvegicus with 16 samples.

Results

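Gene expression in the left ventricle of the rat heart was compared 4 weeks after 5/6 nephrectomy (5/6Nx) with that 4 weeks after sham surgery. The loci described are the 13317 of 22861 in the authors' deposited week 4 table that had the status OK, meaning that the authors' program could test them, and an abundance of at least 1 in either group. Of these, 10358 carried a gene symbol. A further 768 tested loci lay under that minimum, 8764 were not tested and 12 had too little data.

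All groups were male Sprague Dawley rats, delivered at 9 weeks of age, fed a 0.4% Dyets chow and operated on at 10 weeks of age. The 5/6Nx group lost most of its kidney mass by excision, a surgical model of chronic kidney disease, and the sham group had sham surgery. The labels name no other treatment. The 4 week 4 libraries (2 per group, of 16 in the series) were each made from a pool of 2 to 3 rats. They held 46.4 and 61.8 M reads (M, mega) in 5/6Nx and 55.4 and 52.2 M in sham, or 108 M per group. Between 94.6% and 94.9% of reads mapped.

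Chronic kidney disease is known to remodel the heart. Fibroblasts deposit collagens and other matrix proteins between the muscle cells, non-muscle cells divide, and the adult heart muscle draws most of its energy from fatty acids. Immediate early genes code for transcription factors and signalling proteins that cells switch on within a short time of a stimulus, and adipocytes around the heart and its vessels carry their own lipid genes.

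The table gives 1 abundance per group, taken as FPKM (fragments per kilobase of transcript and mega fragments, a level scaled for length), and none per library. Values below are therefore group FPKM. Each log2 fold change is of 5/6Nx over sham with a standard error (SE) derived from the authors' test statistic. A locus was called where the authors' deposited table marked it significant, at a q (a p adjusted over all tested loci) of 0.05 or less. These p-values measure the spread between pools and not between animals. In bulk tissue, fewer cells of a type and less RNA per cell cannot be told apart.

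At week 4, the collagen genes Col1a1, Col3a1 and Col8a1, the matrix genes Postn, Fbn1 and Cilp, the cell division genes Cdk1, Top2a and Prc1, and Sele, the E-selectin gene, rose after 5/6Nx. The adipocyte genes Cidec, Plin1 and Adipoq, the immediate early genes Atf3, Cyr61 and Fos, the atrial muscle genes Sln and Myl7 and the kinase gene Pdk4 fell. Of the 13317 loci 44 were called (0.33%), 22 higher (0.165%) and 22 lower (0.165%). Of these 39 had a symbol. A further 3 called loci lay under the minimum, all of them higher: Cenpf, Aspm and the unnamed XLOC_008214. Called changes were moderate in size. The smallest had an absolute log2 fold change of 0.59 (Casq1), and 17 of the 44 reached 1. The called loci were spread from 1.33 FPKM (Arhgap20) to 467 FPKM (Pdk4) in the higher group, with a median of 11.1 FPKM against 9.46 FPKM over all loci. The deposited p-values are mostly smaller than the deposited statistic gives when it is read as a normal deviate, a reading added after seeing the data. By that reading 14 of the 44 stayed called: Cidec, Plin1, Adipoq, Pck1, Car3, Atf3, Cyr61, Abra, Wfdc1, Fbn1, Postn, Top2a and the unnamed XLOC_009684 and XLOC_002361. At an unadjusted p under 0.05 stood 718 loci (5.39%), 426 higher (3.2%) and 292 lower (2.19%). Of the 13310 loci above 0 in both groups, 45.6% lay above sham and 54.4% below. The share below rose with abundance, as given with the respiratory genes.

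**Figure D1:**
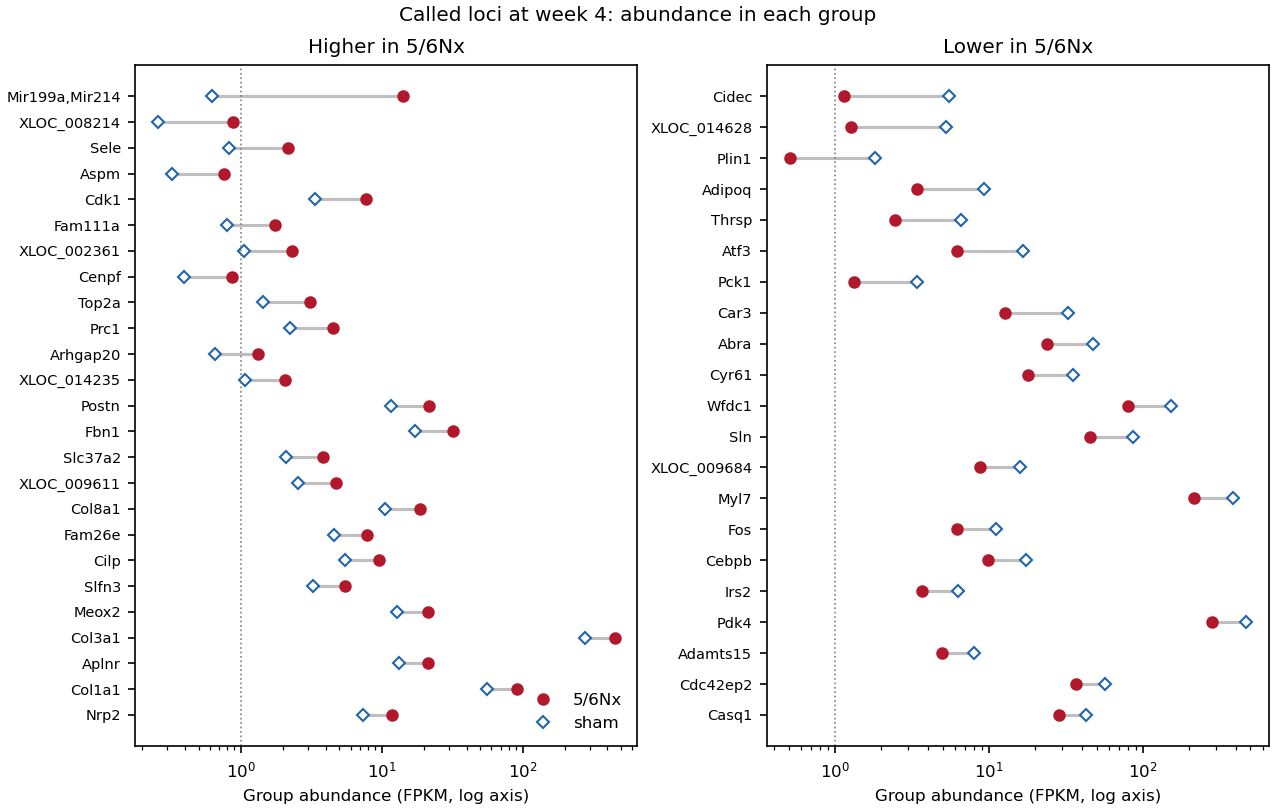
Group abundance (FPKM, log axis) of the called loci with a value above 0 in both groups, 5/6Nx as filled circles and sham as open diamonds, 1 value per group and no error bar; the dotted line marks 1 FPKM. Loci are ordered by fold change, from the microRNA locus (14.3 FPKM in 5/6Nx and 0.620 FPKM in sham) to Nrp2 on the left and from Cidec to Casq1 on the right.

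The cell division genes had the largest median shift of the gene lists. Cdk1 (XLOC_012495), the kinase that drives entry into mitosis, had 7.68 FPKM in 5/6Nx and 3.34 FPKM in sham, a log2 fold change of 1.20 ± 0.36 (2.30-fold). Top2a, the topoisomerase that untangles replicated DNA, had 3.08 FPKM in 5/6Nx and 1.43 FPKM in sham (1.10 ± 0.29). Prc1, which bundles the microtubules of the dividing spindle, had 4.54 FPKM in 5/6Nx and 2.21 FPKM in sham (1.04 ± 0.31). All were low in both groups beside the muscle genes described further on, and higher in 5/6Nx.

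Cenpf and Aspm, under the minimum, were called as well. Cenpf, a centromere protein, had 0.865 FPKM in 5/6Nx and 0.396 FPKM in sham (1.13 ± 0.35). Aspm, a spindle pole protein, had 0.755 FPKM in 5/6Nx and 0.325 FPKM in sham (1.21 ± 0.37). Of 43 genes listed for G2 and mitosis, 34 were matched and 32 met the minimum. Of these 32, 3 rose, 0 fell and 29 were not called, and 22 had an unadjusted p under 0.05 in the direction of 5/6Nx. Their median log2 fold change was 0.88, against -0.02 over all 13317 loci, and 30 lay above sham. Members that were not called included Cdca3, a trigger of mitotic entry (2.71 FPKM in 5/6Nx and 0.917 FPKM in sham, 1.57 ± 0.53, q = 0.0805), and the mitotic kinase Pbk (1.47 ± 0.57, q = 0.182). Bub1, a checkpoint kinase, stood at -0.17 ± 0.24.

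Genes of the S phase shifted less. Of 27 members 0 were called and 22 lay above sham, with a median of 0.10. Rrm2, a subunit of the enzyme that makes deoxynucleotides, had 2.65 FPKM in 5/6Nx and 1.40 FPKM in sham (0.92 ± 0.37, q = 0.155), and Mcm3 of the replicative helicase stood at 0.62 ± 0.36. Of 22 inhibitors of cyclin-dependent kinases and p53 targets 0 were called (median 0.01). Cdkn3 stood at 0.73 ± 0.50 and Cdkn2c at 0.61 ± 0.34. Fam111a, a protease that acts at replication forks and belonged to no list, rose, with 1.75 FPKM in 5/6Nx and 0.80 FPKM in sham (1.13 ± 0.41).

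Promoters of mitotic genes are known for CCAAT boxes, bound by NF-Y, and for a cell cycle genes homology region, often TTTGAA. The promoters of the 3 called mitotic genes that met the minimum are given to show these letters. They come from RefSeq (GRCr8 build, 250 bases before to 50 after the gene start, strand of the gene), which is not the rn5 build of the tables. Capitals mark the CCAAT box and the TTTGAA region, each searched on both strands. The variant TTCGAA was searched in the same way and is also in capitals.
Cdk1 (chr20:19265043-19265342): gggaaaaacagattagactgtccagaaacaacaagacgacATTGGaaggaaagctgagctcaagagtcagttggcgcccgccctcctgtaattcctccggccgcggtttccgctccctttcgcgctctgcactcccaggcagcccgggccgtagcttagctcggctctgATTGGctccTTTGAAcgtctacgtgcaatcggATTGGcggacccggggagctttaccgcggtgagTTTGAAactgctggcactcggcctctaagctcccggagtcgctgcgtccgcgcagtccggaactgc
Top2a (chr10:84473044-84473343): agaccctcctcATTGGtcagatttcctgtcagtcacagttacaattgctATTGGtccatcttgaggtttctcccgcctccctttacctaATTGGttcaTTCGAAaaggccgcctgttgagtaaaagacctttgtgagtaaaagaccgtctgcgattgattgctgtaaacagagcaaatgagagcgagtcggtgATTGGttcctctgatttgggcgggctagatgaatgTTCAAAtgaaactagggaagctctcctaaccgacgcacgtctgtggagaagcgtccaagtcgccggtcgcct
Prc1 (chr1:143659231-143659530): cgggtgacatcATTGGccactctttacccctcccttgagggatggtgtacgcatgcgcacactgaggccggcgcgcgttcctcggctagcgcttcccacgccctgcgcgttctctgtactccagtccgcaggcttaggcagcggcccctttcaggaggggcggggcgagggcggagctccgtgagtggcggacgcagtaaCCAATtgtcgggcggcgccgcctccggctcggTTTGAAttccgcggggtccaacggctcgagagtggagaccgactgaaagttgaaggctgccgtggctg

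The Cdk1 promoter, on the plus strand, held 3 CCAAT boxes and 2 TTTGAA elements. That of Top2a, on the minus strand, held 4 CCAAT boxes, 1 TTTGAA and 1 TTCGAA. That of Prc1, on the plus strand, held 2 CCAAT boxes and 1 TTTGAA. No marked element overlapped another in these 3 windows. With Cenpf and Aspm added, 5 of 5 promoters held CCAAT and 5 of 5 held TTTGAA on either strand. Over all 33469 RefSeq promoters of the same length, the shares were 37.5% and 18.3%. Of the G2 and mitosis list 25 genes had a promoter in the RefSeq table, and 19 (76%) held CCAAT and 17 (68%) TTTGAA. A match of letters does not show that a factor binds there.

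The collagen genes Col3a1, Col1a1 and Col8a1 rose. Col3a1 (XLOC_021450, rn5 chromosome 9, 51689491 to 51725418), a fibrillar collagen of the heart's matrix, had 450.1 FPKM in 5/6Nx and 275 FPKM in sham (0.71 ± 0.24, 1.63-fold). Col1a1, the other main fibrillar chain here, had 90.9 FPKM in 5/6Nx and 56.3 FPKM in sham (0.69 ± 0.22). Col8a1, a short-chain collagen, had 18.8 FPKM in 5/6Nx and 10.6 FPKM in sham (0.82 ± 0.24). Of 6 fibrillar collagens 2 rose and 4 were not called. The median of the 6 was 0.48 and none lay below sham. Col5a2 (0.52 ± 0.22, q = 0.128) and Col5a1 (0.44 ± 0.25) were not called. Of 5 other collagens outside basement membranes, Col8a1 rose, all 5 lay above sham and the median was 0.35. Col14a1 stood at 0.50 ± 0.22. Col1a2 was listed at 0 in both groups and was not tested.

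Proteins that bind or organise the matrix were also called. Postn, the periostin gene, had 21.6 FPKM in 5/6Nx and 11.5 FPKM in sham (0.91 ± 0.23, 1.88-fold). Fbn1, whose product fibrillin-1 forms microfibrils, had 32.2 FPKM in 5/6Nx and 17.3 FPKM in sham (0.90 ± 0.22). Cilp, a secreted matrix protein of cartilage and heart, had 9.49 FPKM in 5/6Nx and 5.50 FPKM in sham (0.79 ± 0.25). These matrix genes were called at a fold change of under 2. Of 18 matricellular genes Postn and Cilp rose and Cyr61, described with the immediate early genes, fell. The median was 0.11, with 12 above sham. Fn1, the fibronectin gene, stood at 0.52 ± 0.22 (q = 0.124) and Wisp2 at 0.67 ± 0.31.

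Of 13 elastic fibre and microfibril genes Fbn1 rose and 12 lay above sham (median 0.17). Ltbp2, a microfibril protein, missed the call at 7.98 FPKM in 5/6Nx and 5.11 FPKM in sham (0.64 ± 0.25, q = 0.0522), and Eln, the elastin gene, stood at 0.41 ± 0.22. Of 20 collagen processing and crosslinking enzymes 0 were called and 17 lay above sham (median 0.21), led by Plod2 (0.52 ± 0.23) and Loxl1 (0.51 ± 0.24), which modify and crosslink collagen. Of 10 basement membrane genes 0 were called (median 0.16). Col4a3 stood at 0.71 ± 0.32 and Col4a4 at 0.57 ± 0.32. Adamts15, a protease that cleaves proteoglycans, fell, with 4.95 FPKM in 5/6Nx and 8.02 FPKM in sham (-0.70 ± 0.25). It was the 1 called gene of 18 proteases and TIMPs, whose median was 0.16. Adamts5, another such protease, stood at 0.67 ± 0.29 and Timp1, an inhibitor of matrix metalloproteinases, at 0.46 ± 0.26 (q = 0.551). Of 15 proteoglycan genes 0 were called (median 0.10), with Sdc4 at -0.57 ± 0.23. The TGF-beta family, with 35 members, and the Wnt pathway, with 20, had 0 called genes each and medians of 0.07 and 0.14.

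Fibroblast markers shared 2 called genes with the lists above, Postn and Col1a1. Of 15 markers 13 lay above sham and the median was 0.30. Thy1 stood at 0.75 ± 0.33 and Fap, a protease of activated fibroblasts, at 0.59 ± 0.29. Summed over the list, the markers held 3172 FPKM in 5/6Nx and 3022 FPKM in sham. Gsn and Dcn, the most abundant, stood at -0.07 ± 0.25 and 0.11 ± 0.23. All 10 pericyte markers lay above sham, 0 called (median 0.29, sums of 813 FPKM in 5/6Nx and 672 FPKM in sham). Of 13 smooth muscle and myofibroblast markers 0 were called and 11 lay below sham (median -0.15). Cnn1, a calponin of contractile smooth muscle, stood at -0.65 ± 0.31. The part of cell numbers in the matrix results was not tested.

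The lists of endothelial adhesion and of VEGF, angiopoietin and apelin signalling held 3 called genes. Sele, the adhesion molecule E-selectin of activated endothelium, had 2.15 FPKM in 5/6Nx and 0.828 FPKM in sham (1.37 ± 0.38, 2.59-fold). Aplnr, the receptor of apelin, had 21.3 FPKM in 5/6Nx and 13.2 FPKM in sham (0.70 ± 0.22). Nrp2, a co-receptor for semaphorins and VEGF-C, had 11.7 FPKM in 5/6Nx and 7.32 FPKM in sham (0.68 ± 0.24). The homeobox gene Meox2, in none of the lists, was also called and had 21.3 FPKM in 5/6Nx and 12.9 FPKM in sham (0.72 ± 0.25). Aplnr and Nrp2 were the 2 called of 35 genes of VEGF, angiopoietin and apelin signalling (median 0.16, 24 above sham), and Vegfc stood at 0.71 ± 0.30 (q = 0.120). Sele was the 1 called of 14 endothelial adhesion molecules (median 0.22, 12 above sham), with Icam1 at 0.52 ± 0.28. The 14 vascular endothelial markers had 0 calls and a median of 0.09, with sums of 4457 FPKM in 5/6Nx and 4540.1 FPKM in sham. Edn1, the endothelin-1 gene, stood at 0.68 ± 0.36 in the endothelin and nitric oxide system (16 genes, 0 called, median 0.13).

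Inflammatory genes lay mostly above sham without calls. Of 31 chemokines and cytokines 0 were called and 23 lay above sham (median 0.17). Ccl2, a monocyte attractant, had 11.8 FPKM in 5/6Nx and 6.12 FPKM in sham (0.95 ± 0.36, q = 0.0880). Of 22 macrophage and monocyte markers 0 were called, 19 lay above sham and the median was 0.22 (sums of 1007 FPKM in 5/6Nx and 878 FPKM in sham). Complement genes (20, median 0.26), interferon-stimulated genes (30, of which 26 lay above sham, median 0.14), T, NK and B cell markers (10, median 0.23) and neutrophil and mast cell markers (8, median 0.19) had 0 calls too. MHC class II genes, with 9 members, had a median of -0.01. Slfn3, a Schlafen family gene, rose, with 5.45 FPKM in 5/6Nx and 3.24 FPKM in sham (0.75 ± 0.28).

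The adipocyte genes Cidec, Plin1 and Adipoq and the lipid genes Thrsp and Pck1 fell. Cidec, which fuses lipid droplets in fat cells, had 1.15 FPKM in 5/6Nx and 5.47 FPKM in sham (-2.25 ± 0.44). Plin1, the coat protein of adipocyte lipid droplets, had 0.508 FPKM in 5/6Nx and 1.83 FPKM in sham (-1.85 ± 0.50). Adipoq, the adiponectin gene, had 3.41 FPKM in 5/6Nx and 9.34 FPKM in sham (-1.46 ± 0.33). Each stood in sham at 2.74 to 4.76 times its level in 5/6Nx.

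Thrsp, which promotes lipogenesis, had 2.44 FPKM in 5/6Nx and 6.62 FPKM in sham (-1.44 ± 0.40). Pck1, the cytosolic phosphoenolpyruvate carboxykinase, had 1.33 FPKM in 5/6Nx and 3.42 FPKM in sham (-1.36 ± 0.35). Car3, a carbonic anhydrase of muscle and fat, had 12.8 FPKM in 5/6Nx and 32.5 FPKM in sham (-1.34 ± 0.29). Of 28 genes of lipogenesis and lipid droplets 4 fell, namely Cidec, Plin1, Thrsp and Pck1, and 0 rose. The median was -0.16 and 20 lay below sham. Against that direction, G0s2, an inhibitor of triglyceride breakdown, had 23.3 FPKM in 5/6Nx and 12.7 FPKM in sham (0.88 ± 0.23, q = 0.0597), and Scd stood at 0.50 ± 0.22.

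Of 11 adipocyte markers 3 fell, Adipoq, Plin1 and Cidec, and 10 lay below sham (median -0.39). The most abundant member, Fabp4, which capillary endothelium also makes, had 2951 FPKM in 5/6Nx and 3052 FPKM in sham (-0.05 ± 0.23) and made up most of the list's sum of 3116 FPKM in 5/6Nx and 3267 FPKM in sham. Retn, the resistin gene, stood at -0.83 ± 0.58. Lep, the leptin gene, chosen after its values were seen, was under the minimum with 0.336 FPKM in 5/6Nx and 0.827 FPKM in sham. Brown adipocyte markers gave 0 calls in 5 members, and of these Cidea, Cox8b and Fabp3 are made by heart muscle too. Ucp1, the uncoupling protein of brown fat, also chosen after its values were seen, was not tested and was listed at 0 in 5/6Nx and at 0.274 FPKM in sham. The part of fat tissue in the pools in these falls was not tested.

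**Figure D2:**
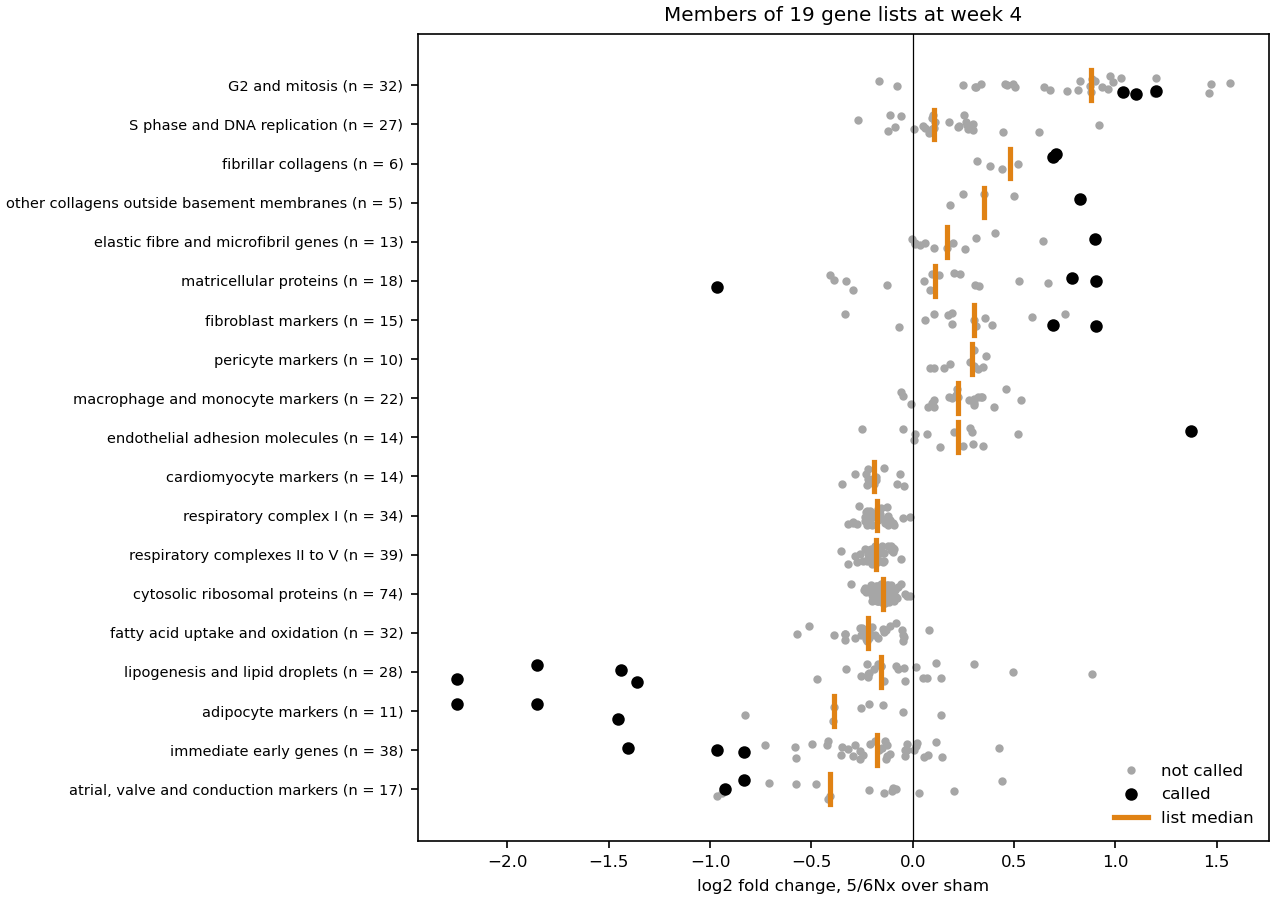
Log2 fold change (5/6Nx over sham) of the members of 19 gene lists at week 4, called members in black, the others in grey and each list's median as an orange bar. G2 and mitosis genes sit highest with a median of 0.88, adipocyte and atrial lists lowest with -0.39 and -0.41, and respiratory and ribosomal genes cluster narrowly just under 0.

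The immediate early genes Atf3, Cyr61 and Fos fell. Atf3, a stress-induced transcription factor, had 6.25 FPKM in 5/6Nx and 16.6 FPKM in sham (-1.41 ± 0.27). Cyr61, a secreted protein of the CCN family, had 18.1 FPKM in 5/6Nx and 35.2 FPKM in sham (-0.96 ± 0.24). Fos, a subunit of the factor AP-1, had 6.23 FPKM in 5/6Nx and 11.1 FPKM in sham (-0.83 ± 0.28). Of 38 members these 3 fell, 0 rose and 30 lay below sham, with a median of -0.18. The kinase gene Sik1 stood at -0.73 ± 0.39 and Csrnp1 at -0.58 ± 0.27.

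Outside that list, Cebpb, Irs2, Wfdc1 and Cdc42ep2 fell. Cebpb, a transcription factor of inflammation and fat cell formation, had 9.84 FPKM in 5/6Nx and 17.5 FPKM in sham (-0.83 ± 0.24). Irs2, an adaptor of the insulin receptor, had 3.70 FPKM in 5/6Nx and 6.31 FPKM in sham (-0.77 ± 0.24), the 1 called of 14 genes of the insulin-like growth factor system (median 0.11). Irs1 stood on the other side at 0.51 ± 0.29. Wfdc1, a secreted protein with a whey acidic protein domain, had 79.9 FPKM in 5/6Nx and 153 FPKM in sham (-0.94 ± 0.23). Cdc42ep2, an effector of the GTPase Cdc42, had 37.0 FPKM in 5/6Nx and 56.9 FPKM in sham (-0.62 ± 0.23).

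Of the promoters of the immediate early list 27 were in the RefSeq table. The full cAMP response element TGACGTCA stood in 5 (18.5%), against 1.83% of all promoters, and the CArG box in 6 (22.2%), against 1.64%. Of the called members, Cyr61 had a promoter there and it held neither. Fos and Atf3 are named only.

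The atrial muscle genes Sln and Myl7 fell. Sln, the sarcolipin gene, whose product inhibits the calcium pump of the sarcoplasmic reticulum, had 45.1 FPKM in 5/6Nx and 85.8 FPKM in sham (-0.93 ± 0.33). Myl7, the atrial regulatory myosin light chain, had 216 FPKM in 5/6Nx and 386 FPKM in sham (-0.83 ± 0.23). Both are mainly atrial in the rodent heart. Of 17 atrial, valve and conduction markers these 2 fell, 0 rose and 14 lay below sham (median -0.41). Myl4, the atrial essential light chain, had 84.0 FPKM in 5/6Nx and 164 FPKM in sham (-0.97 ± 0.56), and Bmp10 had 1.25 FPKM in 5/6Nx and 2.39 FPKM in sham (-0.94 ± 0.38, q = 0.124). Nppa, the atrial natriuretic peptide gene, lay the other way, with 1519 FPKM in 5/6Nx and 1121 FPKM in sham (0.44 ± 0.18, q = 0.358). The list's sum was 3130.2 FPKM in 5/6Nx and 3101 FPKM in sham, of which Nppa held the largest share. The part of atrial tissue in the pools in these falls was not tested.

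Heart muscle genes marked the tissue and shifted little. The cardiomyocyte markers were present at 14 loci, led by Myl2, the ventricular regulatory light chain, with 27112 FPKM in 5/6Nx and 30716 FPKM in sham (-0.18 ± 0.26). All 14 lay below sham, 0 were called and the median was -0.19. Their sums were 97069 FPKM in 5/6Nx and 110971 FPKM in sham. Of all loci at 1000 FPKM or more in the higher group, 92.4% lay below sham. Ckm, the muscle creatine kinase, stood at -0.35 ± 0.23. Of 14 skeletal muscle markers 3 met the minimum, with 0 called and a median of -0.35. They were Ckm, Myl1, with 4.90 FPKM in 5/6Nx and 6.93 FPKM in sham (-0.50 ± 0.42), and Tnnt3, chosen after its values were seen, with 3.27 FPKM in 5/6Nx and 2.70 FPKM in sham. Myh1, Myod1 and Myog, chosen likewise, were listed at 0 in both groups.

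In the sarcomere and Z-disc list 2 of 27 genes fell, Myl7 and Abra, and 26 lay below sham (median -0.20). Abra, an actin-binding activator of serum response factor in striated muscle, had 23.8 FPKM in 5/6Nx and 47.6 FPKM in sham (-1.0 ± 0.21). Of 23 calcium handling genes Sln and Casq1 fell (median -0.11). Casq1, the calsequestrin of fast skeletal muscle, had 28.4 FPKM in 5/6Nx and 42.7 FPKM in sham (-0.59 ± 0.23). The pump gene Atp2a2 stood at -0.17 ± 0.29, its inhibitor Pln at -0.19 ± 0.29 and the release channel Ryr2 at -0.08 ± 0.24. Of 25 potassium and sodium channel and pump genes 0 were called (median -0.18), with Kcna5, an atrial potassium channel, at -0.71 ± 0.30 (q = 0.128).

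Genes that mark pathological hypertrophy were not called. Nppb, the brain natriuretic peptide gene, had 387 FPKM in 5/6Nx and 359 FPKM in sham (0.11 ± 0.16). The myosin heavy chain genes Myh6 and Myh7 share 1 locus in the table, so the switch between them cannot be read, and that locus stood at -0.22 ± 0.31. Acta1, the skeletal actin, had 859 FPKM in 5/6Nx and 872 FPKM in sham (-0.02 ± 0.20). Hypertrophy signalling (19 genes, median -0.01), adrenergic and cAMP signalling (24, median -0.00), the renin-angiotensin-aldosterone and corticosteroid system (19, median -0.08) and the natriuretic peptide system (8, median 0.05) held 0 called genes.

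Energy metabolism gave 1 call. Pdk4 (XLOC_015570, rn5 chromosome 4, 30451748 to 30464109), the kinase that switches pyruvate dehydrogenase off, had 282 FPKM in 5/6Nx and 467 FPKM in sham (-0.73 ± 0.24). A second locus with the same symbol and bounds had 12.1 FPKM in 5/6Nx and 42.1 FPKM in sham (-1.79 ± 1.23) and was not called. Pdk4 was the 1 called of 14 genes of pyruvate dehydrogenase and its kinases (median -0.05). Of 32 genes of fatty acid uptake and oxidation 0 were called and 31 lay below sham (median -0.22). Over all loci 54.4% lay below sham, a share that rose with abundance. Angptl4, an inhibitor of lipoprotein lipase, stood at -0.57 ± 0.32 and Ucp3 at -0.51 ± 0.27. Cpt1b, which brings fatty acids into mitochondria, stood at -0.11 ± 0.22, the fatty acid transporter Cd36 at -0.04 ± 0.22 and the receptor gene Ppara at 0.02 ± 0.37. Of 26 glycolysis genes 0 were called and 22 lay below sham (median -0.11). Eno3, the muscle enolase, had 166 FPKM in 5/6Nx and 242 FPKM in sham (-0.54 ± 0.22, q = 0.0747).

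All 34 genes of respiratory complex I lay below sham with 0 called (median -0.18). Of 39 genes of complexes II to V, 38 lay below sham and 0 above, with 0 called (median -0.18). Of 74 ribosomal protein genes, 73 lay below sham and 0 above (median -0.15). The 1 called among them was Rps6, which has no finite fold change. The fold changes of complex I ran from -0.32 to -0.01. Abundance moved with these values. Over all loci at 1000 FPKM or more in the higher group, 134 of 145 (92.4%) lay below sham with a median of -0.15. Among loci of 300 to 1000 FPKM the median was -0.15 and 84.0% lay below, and at 1 to 3 FPKM the median was 0.04 and 44.2% lay below. At 100 to 300 FPKM 75.6% lay below, and at 30 to 100 FPKM 70.9%. The medians of these abundant lists lay near those of all loci at their level. The part of scaling between groups in them was not tested. The counts below sham in the fatty acid, glycolysis, cardiomyocyte and sarcomere lists stand beside the same shares of all loci. Rps6, a ribosomal protein gene, was called and listed at 0 in 5/6Nx and at 1.85 FPKM in sham. It was listed at 0 in both groups at weeks 2 and 5 as well, and no fold is given.

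**Figure D3:**
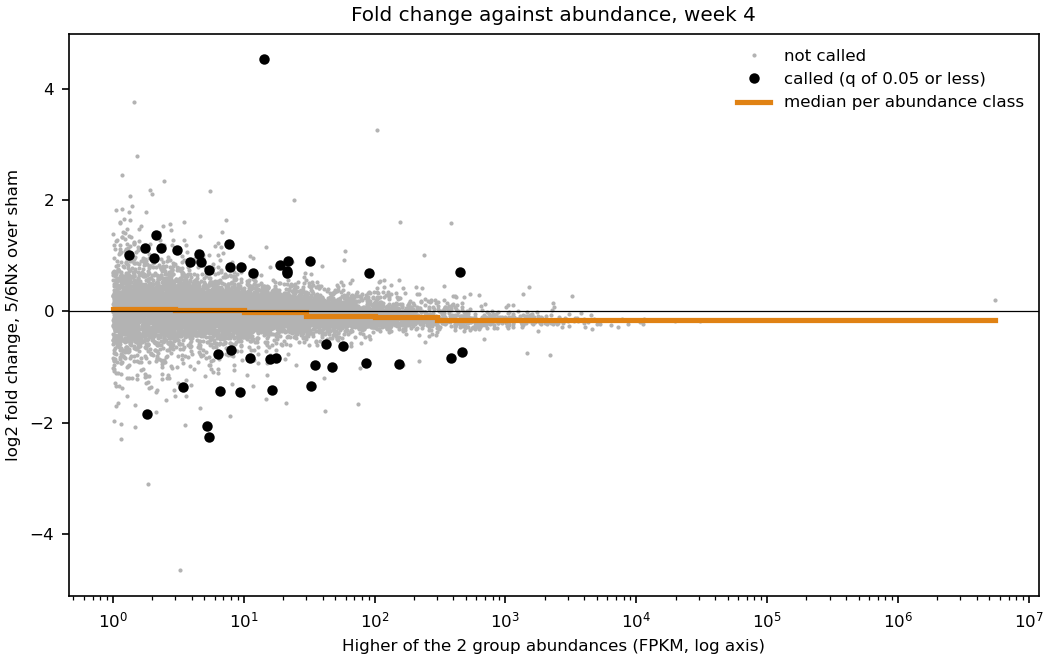
Log2 fold change (5/6Nx over sham) of each locus against the higher of its 2 group abundances (FPKM, log axis), called loci in black, other loci in grey and the median of each abundance class as an orange line. The median goes under 0 as abundance rises, to -0.15 at 1000 FPKM and above, and the called loci lie at 467 FPKM or less.

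Some calls sat at loci that are hard to read. The largest fold change was at the locus listed as Mir199a and Mir214 (XLOC_006382, rn5 chromosome 13, 84796112 to 85272051), with 14.3 FPKM in 5/6Nx and 0.620 FPKM in sham (4.53 ± 1.94). It spans 476 kb and has the same bounds as the locus of Dnm3, a dynamin gene, which had 3.21 FPKM in 5/6Nx and 2.56 FPKM in sham (0.33 ± 0.41) and was not called. The value covers the whole locus and does not measure mature microRNAs. Their sequences from RefSeq (GRCr8 build), with the seed, bases 2 to 8, in capitals, show that the 4 seeds differ.
rno-miR-199a-5p: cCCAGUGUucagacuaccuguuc
rno-miR-199a-3p: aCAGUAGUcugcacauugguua
rno-miR-214-5p: aGAGUUGUcaugugucu
rno-miR-214-3p: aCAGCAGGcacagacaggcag

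The unnamed called loci were 3 higher and 2 lower. XLOC_014628 (rn5 chromosome 3, 183062231 to 183064625) had 1.27 FPKM in 5/6Nx and 5.26 FPKM in sham (-2.06 ± 0.58). It lies 5.16 kb from Cdh26, a cadherin gene that stood the other way, with 5.41 FPKM in 5/6Nx and 3.15 FPKM in sham (0.78), and was not called. XLOC_009684 had 8.78 FPKM in 5/6Nx and 15.9 FPKM in sham (-0.86 ± 0.23). The higher ones were XLOC_002361 (1.13 ± 0.29), XLOC_014235 (0.95 ± 0.27) and XLOC_009611 (0.89 ± 0.26). Remaining named calls were Arhgap20, a GTPase-activating protein (1.33 FPKM in 5/6Nx and 0.659 FPKM in sham, 1.01 ± 0.37), Slc37a2, a sugar phosphate transporter (3.86 FPKM in 5/6Nx and 2.08 FPKM in sham, 0.89 ± 0.34), and Fam26e, now Calhm5 (7.88 FPKM in 5/6Nx and 4.56 FPKM in sham, 0.79 ± 0.30).

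The line of the call fell between p = 0.00015 (q = 0.0450) and p = 0.0002 (q = 0.0522) in the authors' deposited table, where 38 of the 47 called loci stood at the smallest p given, 5e-05. Just inside it were Slfn3 and Slc37a2. Just outside were Art1, an ADP-ribosyltransferase of muscle (-0.86 ± 0.33), the kinesin Kif20b (1.40 ± 0.49, under the minimum), Igsf10 (0.67 ± 0.25), Casc5 of the kinetochore (1.02 ± 0.38, under the minimum), Ltbp2 and the leukotriene receptor Cysltr1 (0.98 ± 0.36). At the next p, 0.00025, stood the kallikrein Klk12 (-2.05 ± 0.61), G0s2 and Loxl2, a lysyl oxidase family member (0.79 ± 0.29).

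The same loci were then followed at weeks 2, 5 and 7. At those weeks 0 of 13404 loci (0%), 74 of 12999 (0.569%) and 239 of 13659 (1.75%) were called by the same rule. Higher were 0.415% and lower 0.154% at week 5, and 1.43% and 0.315% at week 7. At week 7 the sign of the deposited statistic is opposite to the fold change, and directions were taken from the column names. By the sign of the statistic, each week 7 fold change given here would have the opposite sign. Each week has its own pools and table, so time and the pools of a week cannot be told apart.

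Cdk1, Top2a and Prc1 had log2 fold changes above 0 at every week. Cdk1 stood at 0.65, 1.20, 1.69 and 1.11 at weeks 2, 4, 5 and 7, called at weeks 4 and 5. The G2 and mitosis list had medians of 0.60, 0.88, 1.34 and 0.86, with 0, 3, 10 and 3 called higher. Col1a1 stood at 0.66, 0.69, 0.71 and 0.64 and was called at week 4 alone, though its fold change hardly moved. Postn stood at 0.54, 0.91, 1.32 and 3.49. Adipoq stood at -0.25, -1.46, -1.81 and -1.55, called at weeks 4 and 5.

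The immediate early list lay on either side of sham by week, a difference not tested for the list. Its medians were 0.18, -0.18, 0.07 and 0.63 at weeks 2, 4, 5 and 7, with 28 of 38, 8 of 38, 20 of 35 and 33 of 35 genes above sham. Over all loci, 5994 of 13397, 6071 of 13310, 6535 of 12995 and 6676 of 13639 lay above sham at those weeks. Fos stood at 0.30, -0.83, -0.13 and 0.68, and Atf3 at -0.30, -1.41, 0.30 and 0.83. Aplnr stood at 0.06, 0.70, -0.20 and -0.49, called at week 4 alone.

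**Figure D4:**
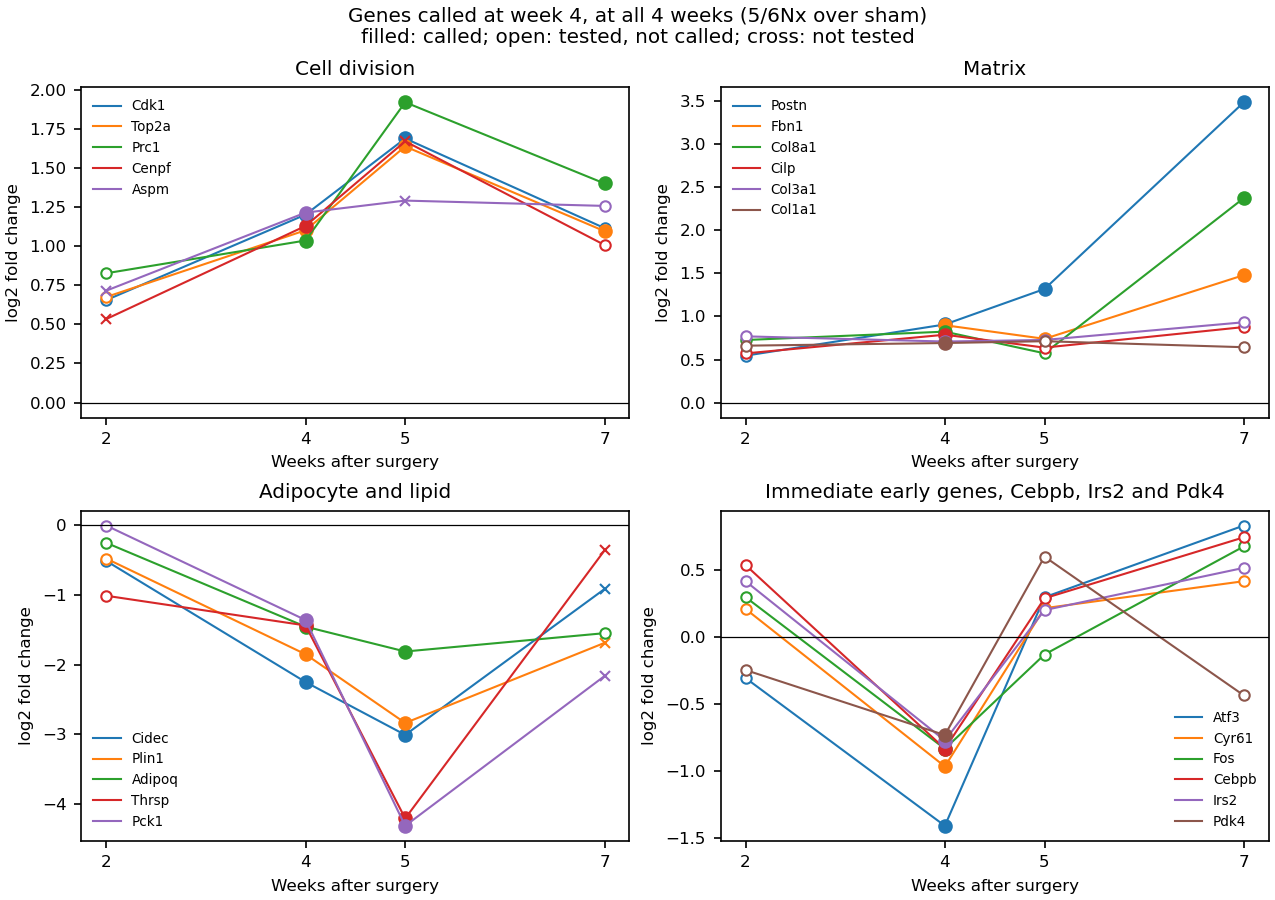
Log2 fold change (5/6Nx over sham) of genes called at week 4, in 4 panels with their own vertical scales, at 2, 4, 5 and 7 weeks after surgery; filled circles were called, open circles tested and not called, crosses not tested, and Fbn1 has no fold change at week 2. Immediate early genes, Cebpb and Irs2 are below 0 at week 4 and mostly above 0 at the other weeks, while the cell division and matrix genes plotted are above 0 wherever they have a fold change, by the column names at week 7.

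A test of the difference between the week 4 effect and that of another week, with SE derived from the deposited p and Benjamini-Hochberg adjustment over all loci compared, passed an adjusted p of 0.05 at 1 of 13071 loci against week 2 (0.00765%), 3 of 12447 against week 5 (0.0241%) and 11 of 12377 against week 7 (0.0889%). Against week 2 the locus was Cebpb (difference of -1.37 ± 0.29). Against week 5 they were the microRNA locus (9.36 ± 1.63), Cdh26 (1.62 ± 0.35) and Pdk4 (-1.33 ± 0.29). At the microRNA locus the SEs derived from the statistic were larger, 1.94 at week 4 and 3.23 at week 5. The size of its difference in SEs therefore depends on the source of the SE. Against week 7 all 11 were lower at week 4. They included the immediate early genes Atf3 (-2.24 ± 0.50) and Egr1 (-1.56 ± 0.34), Thbs1, the thrombospondin-1 gene (-2.68 ± 0.59), and Apold1, an endothelial gene (-1.54 ± 0.34). Of the 44 loci called at week 4, 41 could be compared with week 5, where 13 were called again, 12 of them in the same direction. With week 7, 39 could be compared and 7 were called again. All 7 had the same direction by the column names of week 7 and the opposite one by the sign of its statistic. Called again or not, 32 of 41 had the same sign at week 2, 28 of 41 at week 5 and 28 of 39 at week 7 (by the column names). Over all loci compared, the shares with the same sign were 62.6%, 58.9% and 61.4%. Of the higher calls, 18 of 20 lay above sham at week 5 and 18 of 22 at week 7. Of the lower calls, 10 of 21 and 10 of 17 lay below.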

How the data were processed

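Left ventricle RNA of 2 pooled libraries per surgery and week was sequenced in pairs after a stranded total RNA kit, per the labels' protocols. Tools given in the submitters' processing notes, with no role or order, are TopHat2 2.0.10, Cuffdiff, Cufflinks 2.0.10 and cutadapt, beside the build rn5. The authors deposited 1 table per week with 1 abundance per group and locus, taken as FPKM. That unit was inferred from the named tool, since the file headers do not give it. The statistic in these deposited tables is a score, and their p-value and q-value are those of the authors. A further table gives, per the file headers, the count of reads and the percent of bases at quality 30 and of reads mapped per library.

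The tables held no value per library, so the planned model was not fitted and the authors' call stood. Log2 fold changes were computed from the deposited abundances without a pseudocount, since the fold changes in the tables were not all numeric. The SE printed is the fold change divided by the deposited statistic. The test between weeks took its SE from the deposited p through the normal distribution, as designed. The normal deviate of that p was a median of 1.42 times the statistic, so these SEs are smaller for most loci. At the smallest p they are upper bounds and can be larger than the SE printed, as for Cidec, Atf3 and Adipoq. Loci were matched between weeks by the tables' own locus identifier, where the design named the symbol. The test between weeks was run on simulated data whose p-values were built from the simulated SE. That run could not check the disagreement between the deposited p and statistic. Symbols were matched through a RefSeq gene table (GRCr8) used for names only, and 23 date-like symbols were treated as unnamed.

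The 59 gene lists (1396 genes, 1286 matched) and the named genes were chosen with earlier results of these data known. Named were all called loci, a fixed set of heart genes, per list the called members with the 2 largest uncalled changes and the most abundant uncalled member, loci at the edge of the call, and the 5 genes per week that differed most from week 4, of which 1 is not reported here. Several members per list are summarised by counts only. Lists are described by counts and medians and were not tested. Python 3.11.15, pandas 2.3.3, NumPy 2.4.6, SciPy 1.17.1 and matplotlib 3.10.9 were used. Alternatives changed the q limit, the adjustment, the FPKM minimum, a pseudocount, centring, a size limit and the source of the SE.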

Additional observations from a re-analysis of the deposited data

Results flagged for a closer look

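The test of the difference between the week 4 effect and the effect at another week passed an adjusted p of 0.05 at 15 places. Differences are of log2 fold changes (week 4 minus the other week). Levels are group FPKM within a week, and levels of different weeks come from separate tables, whose scaling to each other is not known. No explanation was tested.

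Against week 2, Cebpb differed by -1.371. It had 9.84 FPKM in 5/6Nx and 17.5 FPKM in sham at week 4, and 16.2 FPKM in 5/6Nx and 11.2 FPKM in sham at week 2. Against week 5, the locus of Mir199a and Mir214 differed by 9.359, with 0.402 FPKM in 5/6Nx and 11.5 FPKM in sham at week 5, the reverse of week 4. Cdh26 differed by 1.615, with 1.42 FPKM in 5/6Nx and 2.53 FPKM in sham at week 5. Pdk4 differed by -1.331. It had 67.9 FPKM in 5/6Nx and 44.8 FPKM in sham at week 5, against 282 FPKM in 5/6Nx and 467 FPKM in sham at week 4.

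Against week 7, all 11 loci stood lower at week 4. Myl1, a light chain of fast skeletal muscle, differed by -2.432, with 29.5 FPKM in 5/6Nx and 7.75 FPKM in sham at week 7. Thbs1 differed by -2.684, Atf3 by -2.241 and Ctgf by -1.975. Ctgf, a matricellular gene, had 82.9 FPKM in 5/6Nx and 90.6 FPKM in sham at week 4, and 249 FPKM in 5/6Nx and 69.2 FPKM in sham at week 7. Egr1 differed by -1.557, Nov by -1.549, Apold1 by -1.540, Ndrg1 by -1.445, the unnamed XLOC_009684 by -1.430 and Errfi1 by -1.418. These week 7 directions follow the column names, to which the sign of the deposited statistic is opposite. Cdh26 is named also in the account of its neighbour, and Ctgf, Nov, Ndrg1 and Errfi1 were chosen after their values were seen.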

How the results depend on the processing

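No alternative run could turn the direction of a week 4 call, so direction was not tested by them. The q, FPKM, size and statistic alternatives kept the same fold changes, and a pseudocount cannot change which group is higher. Centring subtracted a median of -0.02, where the smallest called change had a size of 0.59. At a q of at most 0.01, 0 loci stayed called (0 higher, 0 lower) and 0 of the 18 lists with a called member kept one, because the smallest deposited q is 0.0185. At a q of at most 0.10, 70 loci were called, 40 higher and 30 lower. With an FPKM of at least 5, 13 of the 22 higher calls remained. Where the log2 fold change also had to reach 1 in size, 17 were called, 8 higher and 9 lower, in 6 lists. As alternatives chosen after seeing the data, a pair of readings was added. With the deposited statistic read as a normal deviate, 76 loci were called, 43 of them lower, in 8 lists. They shared 14 of the 44 calls (31.8% of the 44 and 18.4% of the 76), and of the 62 gained, 60 had no symbol and 56 were at most 300 bases wide. Without loci wider than 100 kb, 39 were called. Adjustment over the loci described left 44 calls, and no FPKM minimum gave 47. Pseudocounts of 0.1 and 1 and centring changed the fold changes alone. They kept the authors' calls as they stood and so could not test them.

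Between weeks, 15 differences passed. With week 7 directions taken from the sign of the statistic, which turns every week 7 fold change, 357 did. That turn gives opposite signs to loci that had the same sign, and by SEs from the p only opposite signs could pass. With SEs from the statistic (added after seeing the data) 199 did, and the cause of that count was not tested. No paired analysis was possible because the tables hold 1 value per group and no column per library. Leaving out single libraries was not run for the same reason. The pools, 2 per group, limit what the p-values can show, and no spread between libraries can be given.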

Other observations

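Some gene groups have not yet been described. The circadian clock and output list, with 20 genes, had 0 called members and a median of -0.01, and its members lay on both sides of sham. Npas2, a clock activator, had 2.06 FPKM in 5/6Nx and 1.11 FPKM in sham (0.89 ± 0.36, q = 0.133), and RGD1566380 had 7.01 FPKM in 5/6Nx and 10.9 FPKM in sham (-0.64 ± 0.31). The iron hormone gene Hamp had 44.1 FPKM in 5/6Nx and 65.8 FPKM in sham (-0.58 ± 0.16, q = 0.414) among 32 antioxidant and metal genes, of which 0 were called (median -0.04). Of 31 genes of the unfolded protein response and chaperones 0 were called (median -0.05), and Herpud1 stood at -0.33 ± 0.22. Of 24 muscle ubiquitin ligase and autophagy genes 0 were called (median -0.03). Proteasome subunits, 36 in number, had a median of -0.09, with 31 below sham and 0 called.

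Among other cell types, red cell markers (8 genes, 0 called) had a median of 0.13, Schwann cell and neuron markers (13, 0 called) 0.11, epicardial and mesothelial markers (6, 0 called) 0.07 and endocardial and lymphatic endothelial markers (9, 0 called) 0.14. Msln, a mesothelial gene, had 1.30 FPKM in 5/6Nx and 0.619 FPKM in sham (1.07 ± 0.49, q = 0.494), and Wt1 stood at 0.35 ± 0.24. An unnamed locus of 27 bases, chosen after its values were seen, was listed at 5495940 FPKM in 5/6Nx and 4752410 FPKM in sham, and was not called.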
